A study of Mus musculus with 12 samples.

Results

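The Zic and dorsal neural tube genes followed here were Zic1, Zic2, Zic4, Zic5, Msx1, Msx2, Lmx1a, Olig3 and Atoh1. They were taken by name from the 45706 genes of the deposited count table after mouse Ensembl identifiers were matched to symbols, and all 9 were found. RNA sequencing covered 4 groups of murine cells, of C57BL/6 strain by their labels, with 3 libraries per group, and the study used them to ask what activation of the endogenous Sox1 gene does to neural progenitor cells. All cells came from Sox1GFP embryonic stem cells, in which GFP is knocked into 1 Sox1 copy and reports its promoter. Neural progenitor cells (NPC, labelled Baseline and not sorted) held little mRNA of the neuroepithelial factor Sox1. The second group (NPC(+), labelled Sox1posGP) was made of sorted NPC whose Sox1 promoter had been targeted with dCas9-VP64, a Cas9 without cutting activity fused to a transactivation domain, and whose reporter was on. NSC were unsorted neuroepithelial cells from early neural induction of the stem cells, and NR were neural rosettes, labelled as sorted. The NPC lines that carry dCas9-VP64 were clonal, and which lines gave the NPC and NPC(+) libraries is not stated. In NPC(+), sorting, guide RNAs that direct dCas9-VP64 to the Sox1 promoter and any selection for them go together with Sox1 activation. Their parts in a difference from NPC cannot be told apart.

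In the closing neural tube, BMP and Wnt proteins from the overlying ectoderm and then from the roof plate pattern the dorsal side. Msx1 and Msx2 encode homeodomain repressors induced by BMP signals in the dorsal midline. Lmx1a encodes a LIM homeodomain factor that specifies the roof plate, and Atoh1 and Olig3 encode basic helix-loop-helix factors of the dorsal progenitor domains next to it. The Zic genes encode zinc finger factors of the neural plate and the dorsal neural tube and lie in the genome as head-to-head pairs.

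Total counts were 4939268 to 18351483 in NPC, 3407066 to 6315574 in NPC(+), 29046205 to 43095688 in NSC and 16707006 to 34594885 in NR, so a low count weighs more in the NPC groups. Levels are given in CPM, counts scaled to a common library size after TMM normalization. Sox1, the targeted gene, had 4.83 to 6.00 CPM in NPC, 20.3 to 21.7 CPM in NPC(+), 48.6 to 64.9 CPM in NSC and 4.62 to 20.001 CPM in NR. NR replicate 1 was at the NPC level in spite of its sorting label, so counts and calls that use NR are also given without it. Summed over 7 pluripotent cell markers, levels were 34.7 to 45.5 CPM in NPC, 13.6 to 15.3 in NPC(+), 54.8 to 157 in NSC and 1427 to 2741 in NR. The NPC sum was mostly Klf4 (mean 33.5 CPM, against 5.79 in NPC(+)), the 1 of these 7 markers lower in NPC(+) than in NPC, and the other 6 did not pass. The 6 mesenchyme markers summed to 45.1 to 56.0 CPM over both NPC groups, 929 to 3253 in NSC and 1392 to 7249 in NR. The 6 astrocyte markers, mostly Slc1a3, summed to 3126 to 3432 CPM in NPC, 1510 to 1585 in NPC(+) and 51.6 to 63.8 over NSC and NR. Among the 8 neuroepithelial markers the sums were 561 to 669 CPM in NPC, 603 to 637 in NPC(+), 1815 to 1951 in NSC and 478 to 1027 in NR. Their sums in the NPC groups overlapped although 3 of the 8 were higher in NPC(+), Nes among them (90.2 to 227 CPM), and 3 lower, Sox2 among them (284 to 81.5 CPM). The 7 neuron markers summed to 475 to 502 CPM in NPC, 418 to 436 in NPC(+), 597 to 750 in NSC and 336 to 509 in NR. In the NPC groups these sums were mostly Map2 (mean 464 CPM in NPC and 402 in NPC(+), against 89.9 in NSC and 37.9 in NR). Of the 7, 1 was higher in NPC(+) than in NPC. Both in NSC and in NR, 6 were higher and 1 lower than in NPC. The part of these other cells in the results on the 9 genes was not tested, and in bulk RNA fewer cells of a type and less RNA per cell cannot be told apart.

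Start regions of 4 of the genes are shown as examples of genes whose levels separated the NPC groups from NSC and NR in opposite directions. Zic1, Msx1 and Atoh1 were lower in NSC and in NR than in NPC, and Olig3 was higher. Sequences are from RefSeq (GRCm38.p6), read 5′ to 3′ on the strand of the gene and ending at the base before the outermost annotated start, with CpG dinucleotides in capitals.
Zic1 (chr9:91365811-91366018, minus strand): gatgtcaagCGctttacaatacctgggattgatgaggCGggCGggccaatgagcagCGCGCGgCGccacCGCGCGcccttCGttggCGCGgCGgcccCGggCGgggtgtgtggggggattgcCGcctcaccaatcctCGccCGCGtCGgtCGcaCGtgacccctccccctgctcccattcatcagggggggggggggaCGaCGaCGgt
Msx1 (chr5:37824586-37824835, minus strand): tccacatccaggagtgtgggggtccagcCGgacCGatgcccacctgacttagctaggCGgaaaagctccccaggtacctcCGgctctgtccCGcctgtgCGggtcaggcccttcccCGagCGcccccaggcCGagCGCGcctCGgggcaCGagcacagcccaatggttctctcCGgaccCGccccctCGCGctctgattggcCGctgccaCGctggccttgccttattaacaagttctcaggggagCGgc
Atoh1 (chr6:64728875-64729124, plus strand): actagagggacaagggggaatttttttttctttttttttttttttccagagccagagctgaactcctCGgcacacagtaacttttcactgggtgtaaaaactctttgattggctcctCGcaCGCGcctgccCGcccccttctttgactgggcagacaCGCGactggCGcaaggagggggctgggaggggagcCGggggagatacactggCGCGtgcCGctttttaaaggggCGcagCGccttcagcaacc
Olig3 (chr10:19356289-19356532, plus strand): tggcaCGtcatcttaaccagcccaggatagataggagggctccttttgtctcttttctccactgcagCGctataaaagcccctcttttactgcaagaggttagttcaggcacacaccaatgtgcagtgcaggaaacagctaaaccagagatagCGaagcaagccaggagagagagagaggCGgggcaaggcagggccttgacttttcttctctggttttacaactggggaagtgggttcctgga
RefSeq start windows of 300 bases, 250 before and 50 after the start, were at hand for 8 of the 9 genes and not for Zic2. Across the 27025 windows of the table the median was 7 CpG dinucleotides. The Zic1 window held 31 CpG, the Msx1 window 29 and the Atoh1 window 20, which is more than in 89.7%, 87.3% and 73.2% of all windows. The Olig3 window held 4, and 31.9% of windows had fewer. Windows of the remaining genes held 22 CpG for Msx2, 15 for Zic5, 12 for Lmx1a and 8 for Zic4. Msx2, Zic5 and Lmx1a were, like Olig3, higher in NSC and in NR than in NPC, so the CpG count did not divide the higher from the lower genes. The letters ACAAT, the core bound by SOX factors, occurred on either strand in the Zic1 window and in none of the other 7, against 31.6% of all windows. The letters GGCGCC, a GC-rich motif of the SMAD factors of the BMP pathway, likewise occurred only in the Zic1 window of these 8, against 12.0% of all windows. A match is a description of the letters and not a site.

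Counts of genes past the test used adjusted p under 0.1 with p under 0.05 (edgeR quasi-likelihood test, Benjamini-Hochberg over 17003 genes). The study used these thresholds with a Wald test and counted only changes over 4-fold, a step applied further below. All 9 genes entered the test. In NPC(+) against NPC, 2 of 9 genes were higher (Msx1 and Msx2) and 0 lower, where 21.6% of all genes tested were higher and 22.7% lower. The share of the 9 genes that were higher was near that background. The count of lower genes was also 0 by unadjusted p under 0.05 and by the DESeq2 Wald test. In NSC against NPC, 5 were higher (Zic2, Zic5, Msx2, Lmx1a and Olig3) and 3 lower (Zic1, Msx1 and Atoh1), where 42.7% of all genes were higher and 32.5% lower. The same genes passed in the same directions in NR against NPC, where the shares over all genes were 44.2% higher and 32.8% lower. These comparisons share the NPC libraries. In NR against NSC, 2 were higher (Zic5 and Lmx1a) and 2 lower (Zic1 and Zic4), against 29.5% and 25.8% of all genes. Without NR replicate 1 these fell to 1 higher (Lmx1a) and 0 lower, while the same 8 genes passed in NR against NPC, with log2 fold changes of -2.14 for Zic1, 1.70 for Zic2, 1.39 for Zic5 and -2.10 for Msx1. In NPC(+) against NSC, 3 were higher (Zic1, Msx1 and Atoh1) and 5 lower, against 30.0% and 39.9% of all genes, and in NPC(+) against NR 4 were higher (Zic4 in addition) and 5 lower, against 30.8% and 42.9%. All 9 calls against NR held without NR replicate 1, the weakest being Zic4 (1.39, adjusted p = 0.0329).

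Beyond a fitted 4-fold change, which for genes at the 3-count floor depends on the prior count, fewer of the 9 remained. In NPC(+) against NPC 1 gene (Msx2) was higher, where 3.87% of all genes were, and 0 lower, where 1.92% were. NSC against NPC had 3 higher (Msx2, Lmx1a and Olig3), with 19.1% of all genes, and 1 lower (Atoh1), with 5.89%. NR against NPC had the same 3 higher, with 22.0% of all genes, and 2 lower (Zic1 and Atoh1), with 6.02%. In NR against NSC 1 was higher (Lmx1a, 7.34% of all genes) and 0 lower (0.118%). Msx1 and Atoh1 passed this mark upwards in NPC(+) against NSC (5.82% of all genes) and against NR (6.05%), 2 genes in each. The 3 genes past it downwards were Msx2, Lmx1a and Olig3 against NSC (16.4%) and Zic2, Lmx1a and Olig3 against NR (20.0%). In NPC(+) against NPC, 4 genes had all libraries above those of NPC (Zic4, Msx1, Msx2 and Atoh1), as did 25.7% of all genes, and 1 (Zic1) had all below, as did 27.1%.

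**Figure D1:**
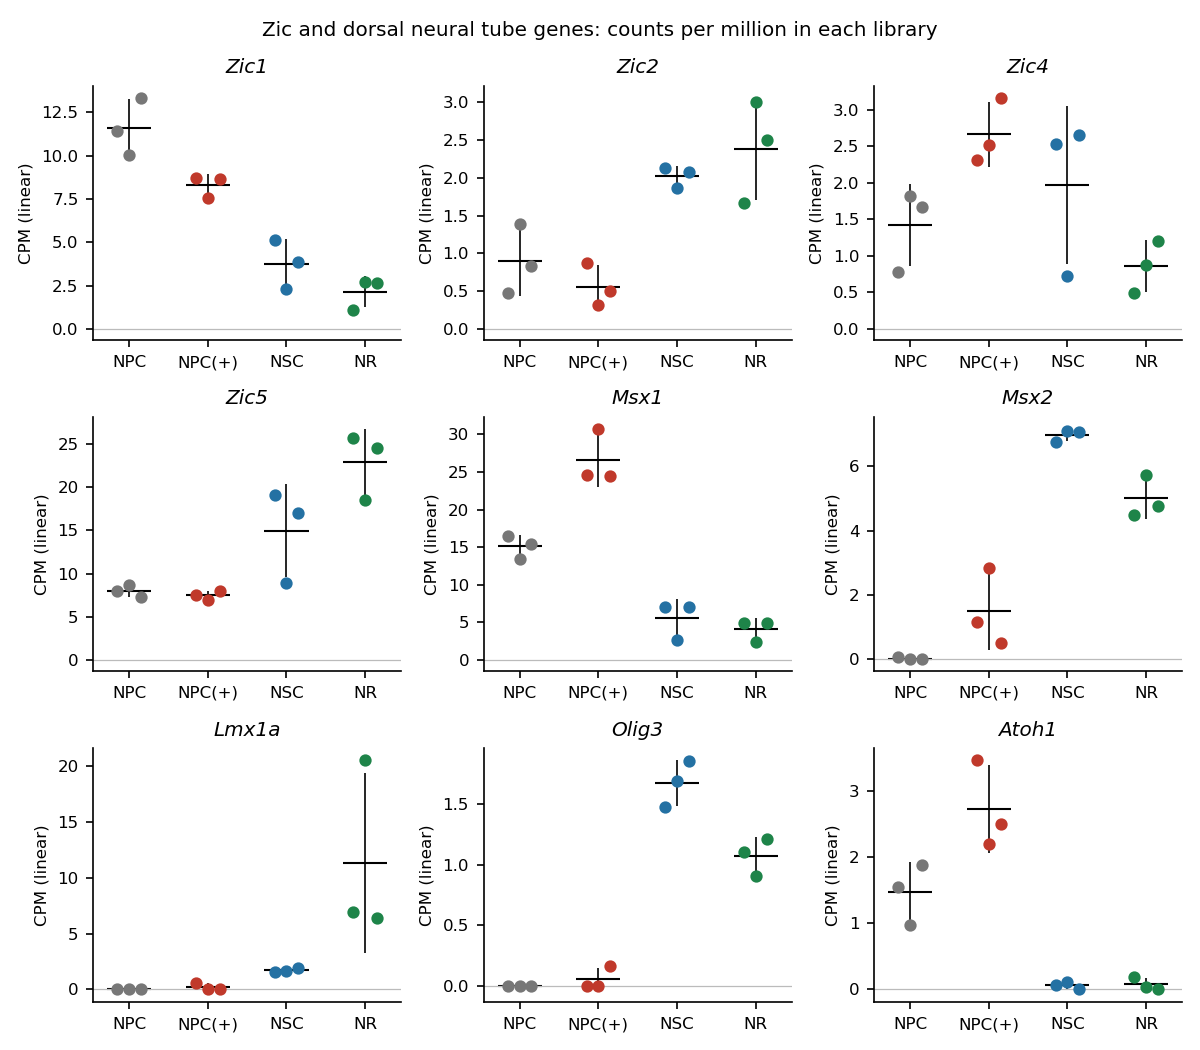
Each panel plots the level of 1 gene in CPM (linear axis) for the 3 libraries of NPC, NPC(+), NSC and NR as points, with the group mean as a horizontal bar and the SD as a vertical line. Msx2, Lmx1a and Olig3 lie at or near 0 in NPC and at or above 0.903 CPM in every NSC and NR library, while Atoh1 lies at or near 0 in NSC and NR.

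Zic1, a zinc finger factor of the dorsal neural tube and of cerebellar progenitors, was highest in NPC and fell through NPC(+) and NSC to NR. It lies on chr9:91358058-91365810 (GRCm38, minus strand). Its levels were 11.4, 10.05 and 13.4 CPM in NPC and 8.69, 7.54 and 8.67 CPM in NPC(+). In NSC they were 5.15, 2.31 and 3.84 CPM, and in NR 1.11, 2.71 and 2.64 CPM. Each NPC library was above each NPC(+) library, and each NPC(+) library above each NSC and NR library, while NSC and NR overlapped. The difference of NPC(+) from NPC did not pass the test (log2 fold change -0.48 ± 0.33 SE, adjusted p = 0.285), and passed when only those 2 groups were fitted (adjusted p = 0.0347, range over 21 alternatives 0.0347 to 0.482). Zic1 was lower in NSC than in NPC (log2 fold change -1.60 ± 0.31 SE, adjusted p = 0.000395) and lower in NR than in NPC (-2.38 ± 0.33 SE, adjusted p = 1.57e-05). It was higher in NPC(+) than in NSC (log2 fold change 1.12 ± 0.33 SE, adjusted p = 0.00775). The step from NSC to NR passed (-0.77 ± 0.32 SE, adjusted p = 0.0566) and was lost without NR replicate 1 (-0.51, adjusted p = 0.167) or without NSC replicate 1 (-0.50, adjusted p = 0.249).

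Zic4, its head-to-head neighbour on chr9:91362413-91389348 (plus strand), is a related zinc finger factor and was low throughout. Levels were 0.776, 1.81 and 1.67 CPM in NPC, 2.32, 2.51 and 3.17 CPM in NPC(+), 2.53, 0.725 and 2.65 CPM in NSC and 0.493, 0.871 and 1.21 CPM in NR. All NPC(+) libraries were above all NPC libraries, from counts of 8 to 19 against 8 to 13. That difference did not pass the test (log2 fold change 1.04 ± 0.56 SE, adjusted p = 0.170), nor did NSC against NPC (0.60 ± 0.51 SE, adjusted p = 0.293) or NR against NPC (-0.54 ± 0.54 SE, adjusted p = 0.370). NPC(+) against NPC passed in 3 of 21 alternatives (adjusted p from 0.00754 to 0.479), which were no filter on low counts, only the 2 groups fitted and leaving out NSC replicate 2. Without NSC replicate 2, whose level was the lowest of its group, NSC against NPC also passed (1.00, adjusted p = 0.0356, range over 21 alternatives 0.0356 to 0.810). Zic4 was higher in NPC(+) than in NR (log2 fold change 1.59 ± 0.52 SE, adjusted p = 0.0135). It was lower in NR than in NSC (-1.15 ± 0.45 SE, adjusted p = 0.0481), a call that was lost without NR replicate 1 (adjusted p = 0.139), NSC replicate 1 (0.154) or NSC replicate 3 (0.163). Zic1 and Zic4 share 60 exon bases on opposite strands, and Zic4 shares 468 with the predicted transcript Gm37477, which had 0 to 8 counts per library. Whether counting used strand is not given in the sources used here, so reads in the shared bases may have been split.

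Zic5 (chr14:122456795-122465677, minus strand), a family member known from neural crest and dorsal midline development, was the highest of the 4 Zic genes per kilobase of exon in NSC and NR. Its levels were 7.94, 8.65 and 7.30 CPM in NPC and 7.53, 6.91 and 8.01 CPM in NPC(+). In NSC they were 19.1, 8.87 and 17.0 CPM, and in NR 25.7, 18.5 and 24.5 CPM. The NPC and NPC(+) ranges overlapped, and the fitted difference was close to 0 (log2 fold change -0.10 ± 0.28 SE, adjusted p = 0.835). Zic5 was higher in NSC than in NPC (0.91 ± 0.25 SE, adjusted p = 0.00448), although NSC replicate 2 lay just above the highest NPC library. It was higher in NR than in NPC (1.52 ± 0.25 SE, adjusted p = 7.67e-05). NR exceeded NSC by 0.61 ± 0.23 SE on the log2 scale (adjusted p = 0.0382), with overlapping libraries, and this call was lost without NR replicate 1 (adjusted p = 0.111), NR replicate 3 (0.103) or, by unadjusted p, NSC replicate 2 (0.0944 adjusted).

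Zic2 (chr14:122475435-122479852, plus strand), which is needed for neural tube closure and forebrain midline development, had few counts in the NPC groups. The counts were 8, 10 and 4 in NPC and 3, 2 and 3 in NPC(+), so that NPC(+) stood at the 3-count floor in every library. In CPM, NPC had 0.477, 1.40 and 0.835, NSC 2.13, 1.86 and 2.07, and NR 1.66, 3.00 and 2.50. Every NSC and NR library was above every NPC library. Zic2 was higher in NSC (log2 fold change 1.29 ± 0.39 SE, adjusted p = 0.00939) and in NR (1.54 ± 0.39 SE, adjusted p = 0.00273) than in NPC. The NSC call was lost without NPC replicate 1 (adjusted p = 0.109, range over 20 alternatives 0.00315 to 0.109). Against NPC(+), Zic2 was at least 3.29-fold higher in NSC and at least 3.89-fold higher in NR, taking NPC(+) at 3 counts per library.

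The balance within each head-to-head pair was compared as the log2 ratio of counts plus 0.5, a measure that scaling between libraries does not change. Start sites are 3397 bases apart for Zic1 and Zic4 and 9758 bases apart for Zic2 and Zic5. For Zic1 to Zic4 the ratios were 3.83, 2.43 and 2.92 in NPC and 1.84, 1.56 and 1.43 in NPC(+). They were 1.02, 1.65 and 0.53 in NSC and 1.12, 1.62 and 1.12 in NR. All 3 NPC ratios lay above the 9 others. The mean was 3.06 ± 0.71 (SD, n = 3) in NPC against 1.61 ± 0.21 in NPC(+), 1.07 ± 0.56 in NSC and 1.29 ± 0.29 in NR. An exact 2-sided permutation test gave p = 0.1 for NPC against each of the other groups, the smallest that 3 against 3 allows, and 0.30 after adjustment over 9 tests. The ratios of NSC, NR and NPC(+) overlapped one another, with exact permutation p of 0.3 to 0.5. Within same-numbered libraries, the Zic1 to Zic4 ratio in NR minus that in NSC was 0.10, -0.03 and 0.59 (exact sign-flip permutation p = 0.50). For Zic2 to Zic5 the mean ratio was -3.18 ± 0.72 (SD, n = 3) in NPC, -2.81 ± 0.50 in NSC and -3.28 ± 0.66 in NR, with exact permutation p of 0.4 to 0.9. Within same-numbered libraries this ratio was lower in NR than in NSC in all 3 pairs, by a mean log2 difference of -0.47 ± 0.27 (SD, n = 3; differences -0.77, -0.38 and -0.26), and the exact sign-flip permutation p was 0.25, the smallest that 3 pairs allow. Without NR replicate 1 the mean of NR was above that of NPC by 0.22, and for Zic1 to Zic4 it was below by a log2 difference of -1.69. NPC(+) was not tested for that pair, since its Zic2 counts were at the floor.

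**Figure D2:**
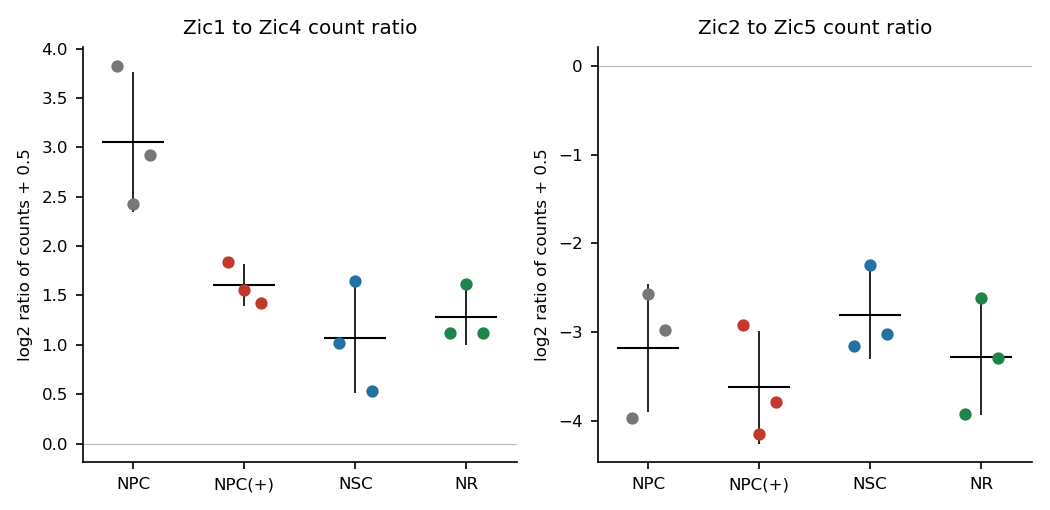
The log2 ratio of counts plus 0.5 is plotted per library for Zic1 to Zic4 (left) and Zic2 to Zic5 (right), with the mean of each group as a bar and the SD as a line. For Zic1 to Zic4 the NPC libraries sit between 2.43 and 3.83 and all others between 0.53 and 1.84, whereas the Zic2 to Zic5 ratios of all groups overlap.

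Msx1 and Msx2, paralogs that often act together downstream of BMP, differed in where they were expressed. Msx1 (chr5:37820485-37824583, minus strand) had 16.5, 13.4 and 15.4 CPM in NPC and 24.6, 30.8 and 24.5 CPM in NPC(+). It had 7.002, 2.62 and 7.07 CPM in NSC and 4.93, 2.36 and 4.86 CPM in NR. All NPC(+) libraries exceeded all NPC libraries, and all NPC libraries exceeded NSC and NR, which overlapped each other. Msx1 was the highest of the 9 genes per kilobase in both NPC groups, at 4.88 ± 0.51 CPM per kilobase in NPC and 8.60 ± 1.16 in NPC(+) (SD, n = 3). The rise in NPC(+) over NPC was 0.82 ± 0.34 SE on the log2 scale (adjusted p = 0.0714). It passed under 16 of 21 alternatives, with adjusted p from 6.16e-06 to 0.212, and was lost when NPC replicate 1, 2 or 3 or NPC(+) replicate 2 or 3 was left out. Msx1 was lower in NSC (-1.43 ± 0.33 SE, adjusted p = 0.00150) and in NR (-1.92 ± 0.34 SE, adjusted p = 0.000175) than in NPC. NPC(+) exceeded NSC by 2.25 ± 0.34 SE on the log2 scale (adjusted p = 4.46e-05).

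Msx2 (chr13:53466884-53473074, minus strand) was almost absent from NPC, with 1, 0 and 0 counts. NPC(+) had 4, 18 and 3 counts, or 1.16, 2.83 and 0.5004 CPM, from libraries with smaller totals. NSC had 6.76, 7.11 and 7.07 CPM, and NR had 4.50, 5.74 and 4.78 CPM. By these values the 4 groups were ordered NPC, NPC(+), NR, NSC without overlap of libraries. NPC(+) replicate 3 was itself at 3 counts, so at the floor it is not separated from NPC. Msx2 was at least 3.67-fold higher in NPC(+) than in NPC taken at 3 counts per library (adjusted p = 0.000300), and the call held in all 20 alternatives that gave a value. That bound rested on NPC(+) replicate 2 and was 2.03-fold without it. Msx2 was still lower in NPC(+) than in NSC (log2 fold change -2.16 ± 0.39 SE, adjusted p = 0.000209) and than in NR (-1.69 ± 0.39 SE, adjusted p = 0.00152). In NSC it was at least 17.1-fold, and in NR at least 12.3-fold, higher than in NPC. The difference of NR from NSC did not pass (-0.48 ± 0.29 SE, adjusted p = 0.199).

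Lmx1a (chr1:167689237-167848741, plus strand), the roof plate determinant, had 1, 0 and 0 counts in NPC and 2, 0 and 0 in NPC(+), so both groups were at the floor and no fold between them is given. In NSC its levels were even, at 1.52, 1.66 and 1.92 CPM. In NR they were 6.90, 20.6 and 6.41 CPM, with NR replicate 2 about 3 times as high as the other libraries of the group. Lmx1a was at least 4.17-fold higher in NSC (adjusted p = 0.000482) and at least 27.7-fold higher in NR (adjusted p = 1.74e-06) than in NPC at the floor. The NR bound was 16.3-fold without NR replicate 2. NR exceeded NSC by 2.74 ± 0.45 SE on the log2 scale (adjusted p = 0.000235), without overlap. That difference passed under all 21 alternatives, with log2 fold changes of 1.96 to 3.02, and was 2.98 without NR replicate 1. All 7 pluripotent cell markers were also higher in NR than in NSC, and their part in this difference was not tested.

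Olig3 (chr10:19356533-19358604, plus strand), a factor of the dorsal progenitor domains, had 0 counts in all NPC libraries and 0, 0 and 1 in NPC(+). A count of 0 in each NPC library allows up to 3 counts per library, and no fold between the NPC groups is given. NSC had 1.48, 1.69 and 1.86 CPM and NR had 1.11, 0.903 and 1.21 CPM, without overlap. Olig3 was at least 4.11-fold higher in NSC (adjusted p = 5.85e-06) and at least 2.63-fold higher in NR (adjusted p = 2.17e-05) than in NPC at the floor. NR was below NSC by a log2 fold change of -0.64 ± 0.30 SE, which did not pass (adjusted p = 0.0983), because its unadjusted p was above 0.05. The same difference passed in 5 of 20 alternatives (adjusted p from 0.0506 to 0.283). Among them was the replicate number as a block, which pairs the NR and NSC libraries (-0.65, adjusted p = 0.0717). It also passed without NPC replicate 2 (adjusted p = 0.0857) or NPC(+) replicate 3 (0.0885), so the gain was not particular to the pairing.

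Atoh1 (chr6:64729125-64731245, plus strand), the determinant of the most dorsal interneurons and of cerebellar granule cells, showed the opposite distribution. NPC had 26, 7 and 9 counts and NPC(+) had 12, 14 and 15, against 3, 3 and 0 in NSC and 3, 1 and 0 in NR. In CPM these were 1.55, 0.977 and 1.88 in NPC and 3.47, 2.20 and 2.50 in NPC(+). All NPC(+) libraries lay above all NPC libraries, but the difference did not pass (log2 fold change 0.87 ± 0.54 SE, adjusted p = 0.236). It passed when only those 2 groups were fitted (0.89, adjusted p = 0.0265, range over 20 alternatives 0.0265 to 0.469). Atoh1 was at least 16.8-fold lower in NSC (adjusted p = 3.74e-05) and at least 12.0-fold lower in NR (adjusted p = 5.18e-05) than in NPC. Against NPC(+), NSC was at least 31.2-fold and NR at least 22.3-fold lower. The deeper libraries of NSC and NR thus held fewer Atoh1 counts than the shallower NPC libraries, and no fold between NSC and NR is given.

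**Figure D3:**
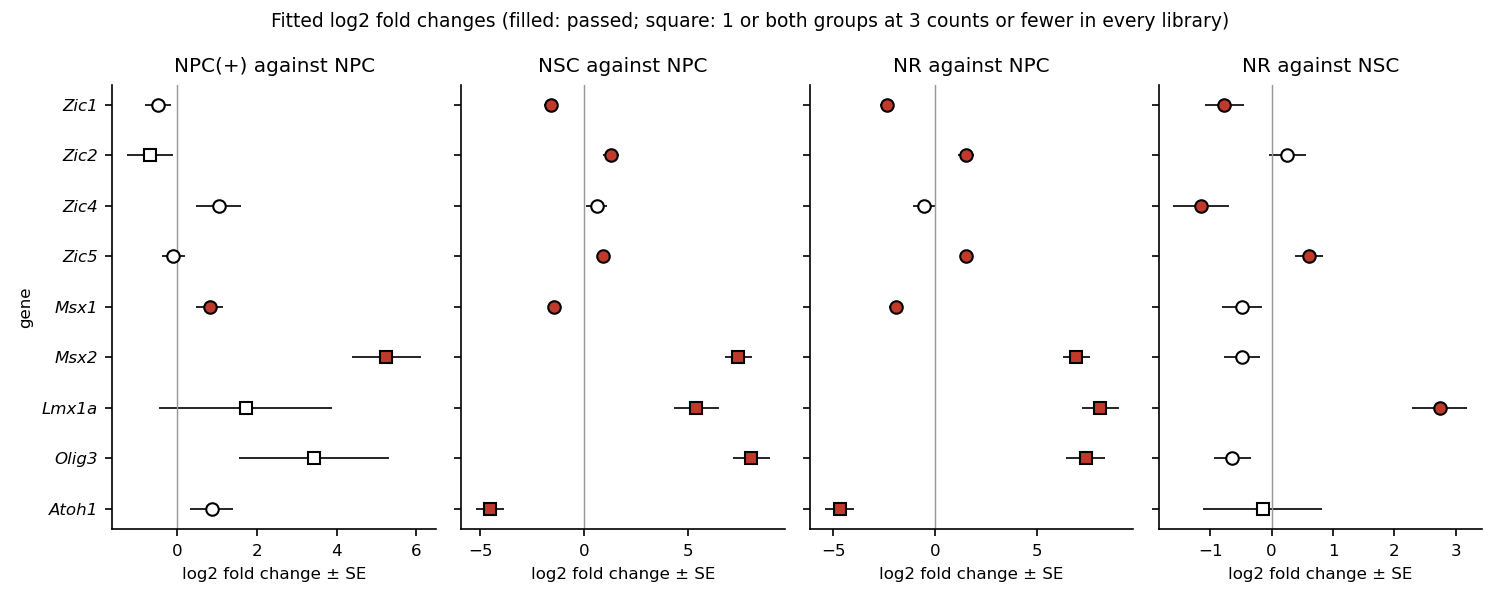
Fitted log2 fold changes with standard errors are plotted for the 9 genes in 4 comparisons, filled where the gene passed the test and square where 1 or both groups had 3 counts or fewer in every library, so that the fitted value depends on the prior count. The horizontal scales differ between panels. In NPC(+) against NPC the filled points are Msx1 at 0.82 and Msx2 at 5.25, while in NSC and NR against NPC 8 of the 9 genes are filled, 5 to the right and 3 to the left.

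Per kilobase of exon, the order of the genes changed between groups. In NPC, Msx1 was followed by Zic1 at 2.04 ± 0.29 and Zic5 at 1.63 ± 0.14 CPM per kilobase (SD, n = 3). In NSC, Zic5 led at 3.07 ± 1.104, followed by Msx2 at 2.13 ± 0.06 and Msx1 at 1.80 ± 0.82 CPM per kilobase, which did not separate beyond their spread. In NR, Zic5 at 4.69 ± 0.79 and Lmx1a at 3.33 ± 2.37 CPM per kilobase led and overlapped.

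The wider dorsal programme was described with lists of related genes, by their counts and medians. Of 6 genes that respond to BMP signals, 5 rose in NPC(+) over NPC and 0 fell, against 21.6% and 22.7% of all genes, with a median log2 fold change of 0.97 where that over all genes was 0. Id3, an inhibitor of basic helix-loop-helix factors, rose from a mean of 43.3 to 256 CPM (log2 fold change 2.56, adjusted p = 2.73e-08). Its relative Id4 rose from 5.78 to 15.6 CPM (1.40, adjusted p = 0.00117), and Smad6, an inhibitor in the BMP pathway, from 1.12 to 2.38 CPM (1.03, adjusted p = 0.0113). Bambi, a BMP pseudoreceptor, did not pass (0.26, adjusted p = 0.235). Summed over the 6 genes, levels were 255 to 309 CPM in NPC and 615 to 655 CPM in NPC(+), with 524 to 747 in NSC and 357 to 449 in NR.

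Among 12 tested dorsal BMP and Wnt pathway ligands, 2 were higher in NPC(+) than in NPC and 0 lower, where 21.6% of all genes were higher and 22.7% lower, so the share of higher ligands was near that of all genes. Bmp2 rose from 0.471 to 2.57 CPM (log2 fold change 2.63, adjusted p = 0.000300), and Rspo1, a secreted enhancer of Wnt signalling, passed from at most 1 count per library in NPC to at most 5 in NPC(+) (adjusted p = 0.00502). The BMP ligand Bmp7, the highest of the list in NPC, had 51.0 CPM there and 32.2 CPM in NPC(+) and did not pass (adjusted p = 0.114). Against NPC, 9 of the 12 ligands were higher in NSC (42.7% of all genes) and 11 in NR (44.2%), and Bmp6, listed at 0 in every NPC library, reached a mean of 11.4 CPM in NSC and 4.63 CPM in NR. In NR against NSC, 7 ligands rose and 3 fell, against 29.5% and 25.8% of all genes. Without NR replicate 1, 11 of 13 ligands tested were higher than in NPC, and 6 were higher and 3 lower than in NSC. Rspo3 (log2 fold change 1.74, adjusted p = 0.000193, and 1.69 without NR replicate 1) and Bmp5 (1.62, adjusted p = 0.00334, and 1.79) were higher in NR than in NSC. Wnt1, expressed in the roof plate, was lower (-1.59, adjusted p = 0.0195, and -1.67).

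Of 10 roof plate factors, 4 rose in NPC(+) over NPC, among them Msx1, Msx2 and Rspo1, and 0 fell, against 21.6% and 22.7% of all genes. In NSC against NPC, 7 roof plate factors were higher and 1 (Msx1) lower, against 42.7% and 32.5%. Of 10 tested dorsal progenitor domain factors, 0 were higher in NPC(+) and 2 lower, the latter near the share of all genes. Dbx2, a homeodomain factor of the border between dorsal and ventral domains, fell from a mean of 1.44 CPM in NPC to at most 2 counts per NPC(+) library (adjusted p = 0.00237). In NSC, 8 of the 10 were higher than in NPC and 2, Atoh1 included, lower, against 42.7% and 32.5% of all genes. The higher ones included the proneural factor Neurog1, with at most 1 count per NPC library and a mean of 19.2 CPM in NSC (adjusted p = 3.73e-09), and Msx3, the dorsal domain relative of Msx1, with at most 2 counts and 7.85 CPM (adjusted p = 3.17e-05). In NR, 8 of the 10 were lower than in NSC and 0 higher, against 25.8% and 29.5% of all genes, Gsx1 among them (-2.31, adjusted p = 0.00350). Without NR replicate 1, 8 of 11 tested were lower and 0 higher (Gsx1 -2.09). The 10 ventral neural tube factors, taken as a contrast, had 9 higher and 1 lower in NSC against NPC, where 42.7% and 32.5% of all genes were. In NR against NSC, 7 of the ventral factors were lower and 1 higher, against 25.8% and 29.5% of all genes. All 8 neuroepithelial markers were also lower in NR than in NSC, so this fall was not particular to the dorsal progenitor domain factors. In NPC(+) 2 of the ventral factors were higher, near the share of all genes, and 1 lower, the last being Olig2 (-1.05, adjusted p = 0.00811).

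Of 12 tested dorsal interneuron factors, 4 were higher in NPC(+) than in NPC and 0 lower, against 21.6% and 22.7% of all genes. Lhx5, a LIM homeodomain factor of early interneurons, went from at most 1 count per library to at most 12 (adjusted p = 0.00344), and Isl1, a LIM homeodomain factor of dorsal interneurons and motor neurons, rose from 1.28 to 3.50 CPM (log2 fold change 1.46, adjusted p = 0.0229). Pax2 passed from at most 1 count per library in NPC to 0 to 6 in NPC(+) (adjusted p = 0.0887). Its NPC(+) mean was 0.314 ± 0.544 CPM (SD, n = 3), so this call rests on the library with 6 counts. Lbx1, a homeodomain factor of dorsal interneurons, rose from 2.84 to 7.61 CPM (1.44, adjusted p = 0.0291). Among 10 neural plate border and crest factors 2 were higher and 2 lower, near the shares of all genes. Snai2, a crest factor of epithelial to mesenchymal transition, rose from 0.113 to 5.67 CPM (adjusted p = 7.67e-05), while Sox9 fell from 235 to 93.5 CPM (-1.32, adjusted p = 0.00189) and Ets1 from 312 to 176 CPM (-0.83, adjusted p = 0.0328).

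**Figure D4:**
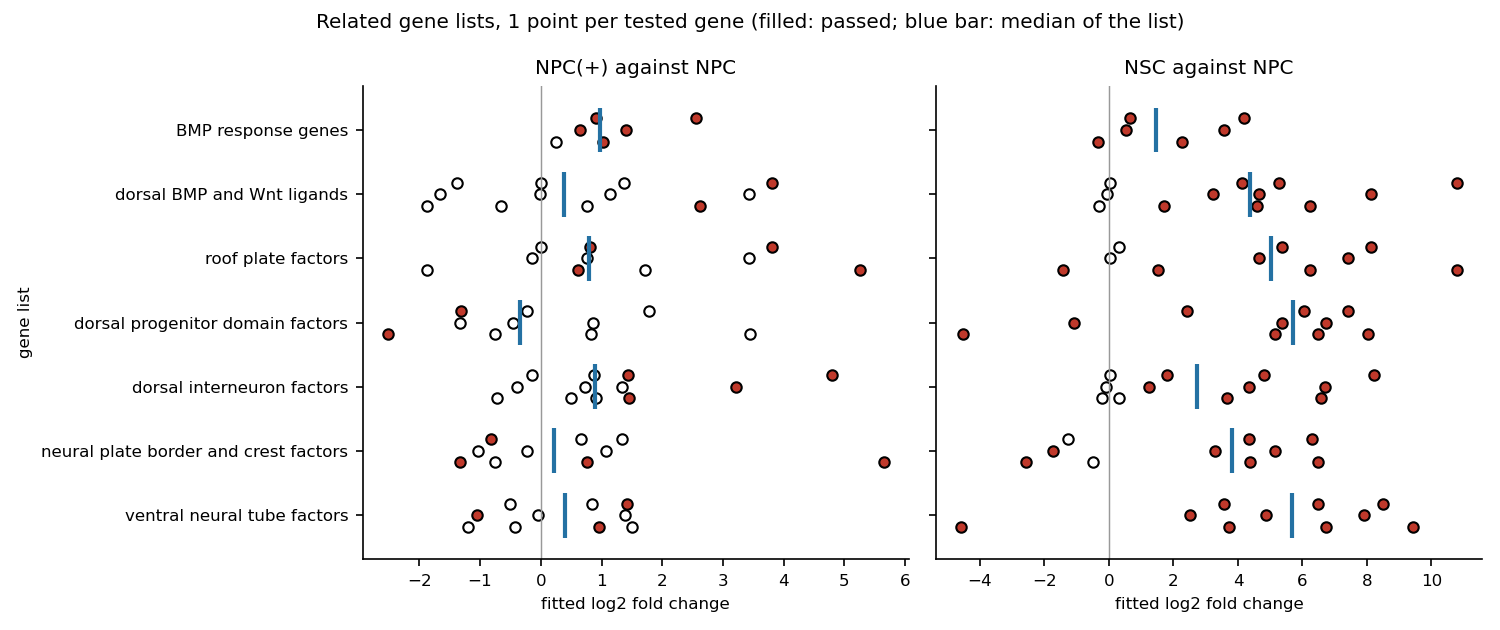
Each point is the fitted log2 fold change of 1 tested gene of 7 related lists in NPC(+) against NPC (left) and NSC against NPC (right), filled where it passed, with the median of the list as a blue bar. In NPC(+) the BMP response genes hold 5 filled points to the right of 0 and the dorsal progenitor domain factors hold 2 to the left, and in NSC the ventral list holds 9 to the right and 1 to the left. Values of genes at 3 counts or fewer in every library of a group depend on the prior count.

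Over the 12 libraries, genes whose log2 CPM most closely followed 8 of the 9 genes were listed as a description, since libraries of a group share their group's level and depth. Of 11957 genes compared, Zic1 was followed most closely by Kmt2a (Pearson r = 0.98) and Msx1 by Adam12 (0.98). Msx2 was followed by Brip1 (0.99), Lmx1a by Kcnk5 (0.97), Olig3 by Cirbp (0.99) and Gli1 (0.99), and Atoh1 by Fam210a (0.99). For Zic4 the closest gene was Lbx1 (0.92), and for Zic2 it was Dmwd (0.95). Among the 9 genes themselves, Zic1 and Msx1 (r = 0.81) and Msx1 and Atoh1 (0.89) varied together, Olig3 and Atoh1 oppositely (-0.93), and Msx1 and Msx2 oppositely (-0.61).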

How the data were processed

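The authors isolated total RNA for 12 libraries (4 groups of 3) with a PicoPure kit, and full-length cDNA was amplified by SMART-Seq v4. The authors deposited whole-number counts per Ensembl gene without normalization. STAR 2.6, RSEM 1.1.14 and mm10 are named in the submitters' processing notes with no role, and whether the counts are rounded RSEM estimates, the annotation and the strand setting are not given in the sources used here. Symbols and positions were taken from GENCODE M21 (GRCm38). Genes without a symbol held 0.124% of counts.

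Counts were scaled by TMM, filtered with filterByExpr and fitted over all 12 libraries with edgeR 4.0.16 (R 4.3.3, quasi-likelihood test, group as the only term), with Benjamini-Hochberg adjustment over 17003 genes. The main fit was tested on simulated counts. Changes were set in NPC(+) against NPC only, and in genes whose mean level lay above the floor. Rises from the 3-count floor in NPC were thus not covered. Where a group had 3 counts or fewer in every library, folds are lower bounds against 3 counts per library. Floors cover counting error only, while each SE and SD also includes the spread between libraries. The genes and lists were chosen with earlier results of these data known. In each related list, up to 3 genes with the largest change past the test were named, and genes named beyond that were chosen after their values were seen. Some genes of these lists are not reported here. Replicate libraries differed by more than counting noise (chi-square per degree of freedom 1.54 to 49.0). The study describes replicates as made on different days and with different clonal lines, without tying libraries to lines, so p-values measure the spread between these libraries. Deviations of same-numbered NR and NSC libraries from their group means correlated at 0.229, 0.490 and 0.296 over genes, all over 0.1. Those numbers were therefore taken as pairs in the replicate block and in the ratios within same-numbered libraries. The NR against NSC calls of the main fit did not use these pairs. Alternatives were DESeq2 size factors, upper-quartile scaling, the DESeq2 1.42.0 Wald test, other filters on low counts, a replicate block, a prior count of 2, thinning to the smallest library, fitting only the groups compared, adjusted p under 0.05 and leaving out each library.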

Additional observations from a re-analysis of the deposited data

How the results depend on the processing

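Msx2, Lmx1a, Olig3 and Atoh1 kept their direction and call in NSC and NR against NPC under every alternative that gave a value, and no call turned its direction. Of the values of single genes over all alternatives, 1078 stayed on their side of the threshold, 18 lost the call and 15 gained it. With libraries thinned to the smallest total, Zic2, Olig3 and Atoh1 no longer entered the test, and 3 genes were higher in NSC and in NR than in NPC, 3 lower in NPC(+) than in NSC and in NR, and 1 lower in NR than in NSC. At adjusted p under 0.05, the comparison of NPC(+) with NPC kept 1 higher gene and that of NR with NSC 1 lower gene. With only the 2 groups compared in the fit, Zic1 was the 1 gene lower in NPC(+) against NPC, Msx1, Zic4 and Atoh1 were the 3 higher while Msx2 was not tested, and 1 gene was higher in NR against NSC, and the cause was not tested. Leaving out 1 library gave 1 to 3 genes higher in NPC(+) than in NPC, 1 to 2 higher in NR than in NSC and 0 to 3 lower in NR than in NSC. Adding a replicate block gave 2 higher and 0 lower in NPC(+) against NPC and 2 higher and 3 lower in NR against NSC. Apart from Olig3 this block changed no call. Shares over all genes are given for the main fit only and not for these alternatives. Whether calls over all genes changed along with these counts was therefore not tested, and a changed count is not a result about these genes alone. Further values were added after the data were seen, namely bounds of folds without 1 library, list counts without NR replicate 1, and the pair ratios within same-numbered NR and NSC libraries. Same-numbered libraries deviated together in NR against NSC only, and the mean correlation was -0.0386 to 0.0285 in the other 5 comparisons. Groups with 3 counts or fewer in every library, such as NPC for Msx2, Lmx1a and Olig3, limit folds to lower bounds.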
